A study of Mus musculus with 17 samples.

Results

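Mouse embryonic stem cells whose RNA polymerase II elongates slowly were compared with WT cells after 1 day in 2i. The comparison holds 5 of the 17 RNA-seq libraries of the series, chosen by genotype and day from the sample titles: 3 of the mutant (RNAPII-mut, genotype given as slow/slow) and 2 of WT. Both lines are E14 cells, grown without feeders on gelatine in 10% serum with 1000 U per mL LIF, and the cells of all 5 libraries had received the MEK inhibitor PD0325901 at 1 uM and the GSK3 inhibitor CHIR99021 at 3 uM, together called 2i, for 1 day. The other libraries, used here for the spread between libraries and for values on other days, are of the same lines after 0, 2 and 7 days of 2i, with 2 libraries for each genotype and day. The labels name 1 line per genotype, so an effect of the mutation and any other difference of that line cannot be told apart. Nothing states that the replicates were separate cultures, and the p-values therefore measure the spread between these libraries, which may be technical.

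RNA polymerase II transcribes all protein-coding genes. Its speed sets how long a transcript takes to finish, which weighs most on long genes, and it shapes splicing while the transcript is being made. Embryonic stem cells in serum and LIF are a mixture that drifts toward differentiation. Blocking MEK silences the ERK cascade and its target genes, blocking GSK3 stabilises beta-catenin, and together they move the cells toward the naive state of the early embryo.

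The 5 libraries held between 47350441 and 55344059 counts, and values are given in CPM (counts per gene scaled to the size of the library), in the order WT replicates 1 and 2, then mutant replicates 1, 2 and 3. Of 12472 genes with at least 1 CPM on average over the 5, 20.7% differed over 2-fold between the WT libraries, against 2.35 to 7% between pairs of mutant libraries. WT replicate 1 carried smooth muscle transcripts: the 4 smooth muscle markers Acta2, Tagln, Cnn1 and Myl9 summed to 904 CPM there, while WT replicate 2 had 5.53 and the mutant libraries 11.8 to 25.4. The 6 fibroblast and stromal markers summed to 1485 CPM in WT replicate 1, 1005 in replicate 2 and 699 to 946 in the mutant libraries. Of these Col1a1, Col1a2, Col3a1, Fn1 and Postn were highest in WT replicate 1, and Thy1 in WT replicate 2. WT replicate 2 carried the most primitive endoderm transcripts, with the 6 markers Gata6, Gata4, Sox17, Sox7, Pdgfra and Dab2 summing to 79.2 CPM, while WT replicate 1 had 19.3 and the mutant libraries 9.34 to 10.95. Embryonic stem cell markers were high in all 5 libraries, with Pou5f1, Sox2, Nanog, Utf1 and Zfp42 summing to 2379 CPM in WT replicate 1 and to 3960 to 4436 in the others. In such bulk samples fewer cells of a type and less RNA per cell cannot be told apart.

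By the edgeR quasi-likelihood test, 64 of 15365 genes (0.417%) passed at an adjusted p under 0.05. In the mutant 16 were higher (0.104% of the genes tested) and 48 were lower (0.312%), and 55 differed by at least 2-fold. None of the 64 overlapped between the groups, whereas 12.7% of all genes tested lay higher without overlap and 13.2% lower. The higher genes were mostly modest and even between libraries: in all 16 the WT libraries were within 2-fold of each other. Among the lower genes that held for 35 of 48, while WT replicate 1 was at least 2-fold above replicate 2 in 11 and replicate 2 above replicate 1 in 2. Of the 64, 50 belonged to none of 37 gene lists of pathways, complexes and lineages, and 25 of the 36 lists with members tested had no member past the test. The count was 25 without WT replicate 1, 241 without WT replicate 2, and 22, 10 and 16 without mutant replicates 1, 2 and 3. Ddx3y, Uty, Eif2s3y, Mest, Synj2, Cds2, Prrc1 and Elavl3 passed in all 5 of these fits, and each other gene called below lost its call in at least 1 of them. Genes are named by a rule that takes the 12 largest rises and falls above a set level the leading members of each list and a set of pluripotency, signalling and lineage genes. Outside it, and chosen after their values were seen, are all called genes other than the 28 in the plot of effects by day. So are Supt5, Cdk9, Zfy1, the X-linked partners, Copg2, Peg10, Grb10, Cds1, Cdipt, Tubb3, Sox1, Col3a1, Postn, Thy1, Col4a1, Fos, Ldha, Pkm, Fdft1, Lss, Srebf2 and Insig1, none of which passed. When each library's dependence on gene span was offset, 30 were higher and 54 lower. A fit of the 5 day 1 libraries alone called 5 genes, of which only Ddx3y, Eif2s3y and Mest were among the 64. Within WT a replicate number carried over days. A fit with a term for it called 695 genes (264 higher, 431 lower), all 64 among them, and DESeq2 called 766. Unless another fit is named, whether a gene passed is given by the edgeR fit without that term.

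**Figure D1:**
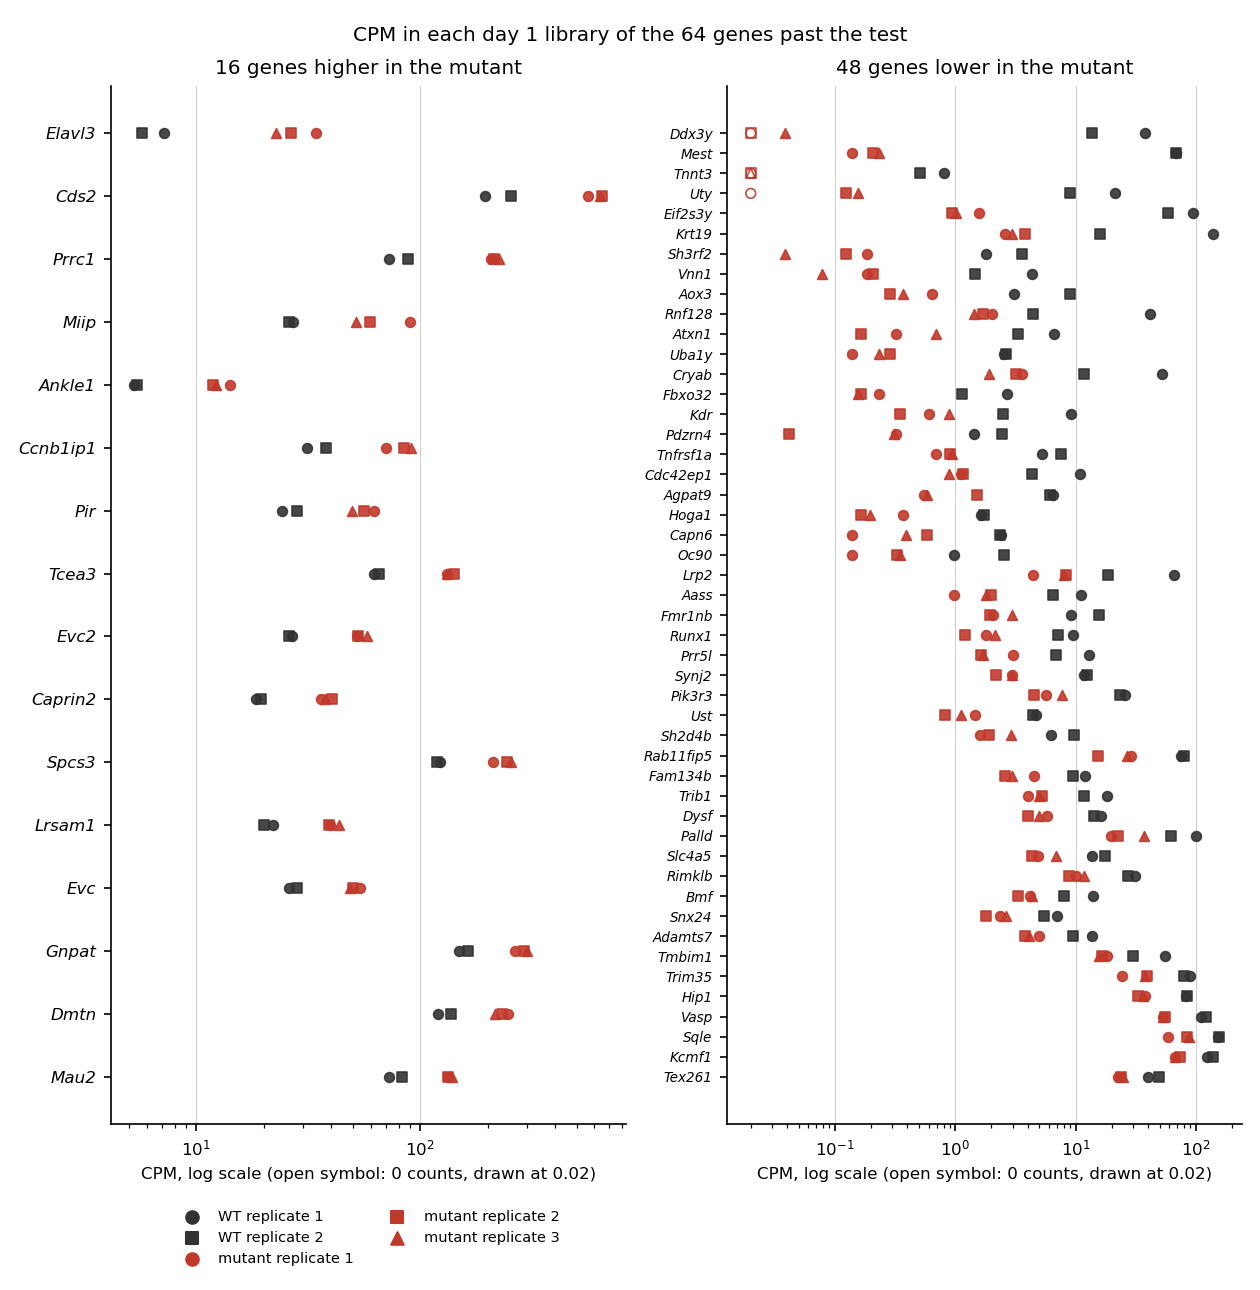
CPM on a log axis in each of the 5 day 1 libraries for the 16 genes higher (left) and the 48 genes lower (right) in the mutant, with WT in dark grey and the mutant in red and 1 symbol per replicate number. For each gene the genotypes do not overlap, and the WT symbols lie farthest apart for Rnf128, Krt19, Cryab, Kdr and Lrp2.

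Of the polymerase and its elongation factors 1 gene passed. Polr2a, which encodes the largest subunit of RNA polymerase II, was at 611 and 728 CPM in WT and at 495, 456 and 656 in the mutant. The groups overlapped, the log2 difference was -0.32 with a standard error of 0.27, and the adjusted p was 0.64 by edgeR. The labels do not say which position is altered, and these counts do not separate the alleles, so the gene's level does not check the genotype. None of the 12 polymerase II subunits passed, and their median log2 difference was 0.03, against -0.05 over all genes tested. That median turned with the WT libraries, to -0.27 without WT replicate 1 and 0.54 without WT replicate 2, and was -0.003 with upper quartile scaling and -0.08 with span offsets.

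Of 35 elongation factors 1 passed, and it was higher. Tcea3 (chromosome 4, 136247729 to 136274898, plus strand) belongs to the TFIIS family, which restarts stalled polymerase by stimulating cleavage of the transcript. It stood at 62.2 and 65.2 CPM in WT and at 132, 141 and 131 in the mutant. Libraries of a genotype were close, and the genotypes lay well apart. The log2 difference was 1.08 (standard error 0.19, adjusted p = 0.0284 by edgeR), and the call was lost whichever of the 5 libraries was left out (adjusted p 0.0519 to 0.162). The widely expressed relative Tcea1 overlapped at 100.5 and 54.1 against 86.5, 107 and 92.0 CPM, adjusted p = 0.753. Tcea2 lay apart at 6.43 and 4.67 against 11.4, 8.96 and 7.22 CPM but did not pass (log2 difference 0.73, adjusted p = 0.349). Across the list 19 of 35 differences were positive with a median of 0.02 (-0.01 with upper quartile scaling). Without overlap 8 members lay higher and 2 lower, against 12.7% and 13.2% of all genes tested. Pausing and its release were represented by Supt5, a subunit of DSIF, at 365 and 500.5 against 570.2, 501.5 and 511.5 CPM, and by Cdk9, the kinase of P-TEFb, at 131.4 and 189 against 137, 130.5 and 135 CPM. Neither passed; Cdk9 overlapped and Supt5 was lowest in WT replicate 1. Among 31 splicing factors none passed, with a median of 0.03. Without overlap 3 of them lay higher and 1 lower, against the same 12.7% and 13.2%.

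The Y chromosome held Ddx3y, the gene with the largest log2 difference, and 3 other genes past the test. Of 10 Y-linked genes on the list 5 were tested. All 5 were lower in the mutant, and 4 of them passed. Eif2s3y, a subunit of a translation initiation factor, was at 95.4 and 58.2 CPM in WT and at 1.57, 0.949 and 1.01 in the mutant. Ddx3y, an RNA helicase, was at 37.6 and 13.8 CPM in WT and had 0, 0 and 0.0388 CPM in the mutant, a WT over mutant ratio of 1907 with a 95% exact interval of 527.4 to 15750 that covers counting error only. Uty, a histone demethylase homologue, was at 21.1 and 8.93 against 0, 0.124 and 0.155 CPM (153-fold lower, adjusted p = 0.00321 by edgeR), and Uba1y, a ubiquitin-activating enzyme, at 2.56 and 2.63 against 0.139, 0.289 and 0.233 CPM (11.6-fold lower, adjusted p = 0.00798). Every WT library was above every mutant library for these 4, and also for Zfy1, which did not pass (0.354 and 0.392 CPM in WT, no count in the mutant, adjusted p = 0.109). The X-linked partners of the 4 did not pass, with Ddx3x at a log2 difference of -0.53, Kdm6a at -0.17, Eif2s3x at 0.08 and Uba1 at 0.24. Reads shared between such X and Y copies may be split or dropped by counting, and how they were treated is not given in the sources used here. The 150 bases before the start of the 3 Y-linked genes with the lowest p are shown because these genes moved together. They come from the RefSeq promoter table for GRCm38.p6, read 5′ to 3′ along the gene, with CG pairs in capitals: chrY:1010445-1010594 (plus strand) for Eif2s3y, chrY:1286614-1286763 (minus) for Ddx3y and chrY:1245760-1245909 (minus) for Uty.
Eif2s3y: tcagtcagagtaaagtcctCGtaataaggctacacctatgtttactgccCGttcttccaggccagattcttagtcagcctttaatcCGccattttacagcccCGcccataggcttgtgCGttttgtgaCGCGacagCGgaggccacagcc
Ddx3y: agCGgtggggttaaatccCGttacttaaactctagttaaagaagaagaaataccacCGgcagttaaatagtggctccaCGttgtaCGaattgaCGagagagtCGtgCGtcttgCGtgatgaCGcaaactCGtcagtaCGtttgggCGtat
Uty: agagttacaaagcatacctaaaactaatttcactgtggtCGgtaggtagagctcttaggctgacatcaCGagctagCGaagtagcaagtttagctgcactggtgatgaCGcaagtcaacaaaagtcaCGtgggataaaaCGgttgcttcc
These windows hold 8, 13 and 6 CG pairs, against a median of 4 over 32817 windows of that length. The GC box GGGCGG, on either strand, is in the Eif2s3y window only, and 28.6% of all windows have it. CCAAT (24.5% of windows) and TATAAA (7.6%), also read on both strands, are in none of the 3.

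Mest, a hydrolase-fold gene that is imprinted and read from the paternal copy, was the gene with the lowest p. It lies on chromosome 6 from 30723547 to 30748465 on the plus strand of GRCm38. It stood at 68.6 and 68.0 CPM in WT and at 0.139, 0.206 and 0.233 in the mutant, and the WT libraries were nearly equal. The difference was 347-fold (log2 -8.44, standard error 0.54, adjusted p = 1.3e-05 by edgeR, and at most 0.00054 whichever library was left out). Copg2 on the opposite strand, whose annotated span overlaps that of Mest on chromosome 6, stood at 58.0 and 57.1 against 59.96, 62.1 and 61.1 CPM (adjusted p = 0.835). Among 23 imprinted genes tested Mest alone passed. The median was -1.09, and -0.42 without WT replicate 1. Without overlap 10 members lay lower and 2 higher, against 13.2% and 12.7% of all genes tested. Igf2, a fetal growth factor, was at 269 and 48.4 CPM in WT and at 9.52, 14.2 and 12.1 in the mutant (adjusted p = 0.0818). Peg10, a placental gene derived from a retrotransposon, was at 1018 and 188 against 77.7, 122.6 and 146 CPM (adjusted p = 0.0971), so WT replicate 1 was highest for both. Grb10, a growth inhibitor, was at 190 and 163 against 115, 117 and 122 CPM and did not pass either.

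Cds2 and Elavl3 led the genes that were higher. Cds2 (chromosome 2, 132263148 to 132312050, plus strand) makes the CDP-diacylglycerol used for phosphatidylinositol synthesis and stood at 195 and 255 CPM in WT and at 561, 650.1 and 636 in the mutant. It was 2.74-fold higher (adjusted p = 0.00256 by edgeR), and the other 15 genes of the phosphoinositide list did not pass, Cds1 being at a log2 difference of 0.42 and Cdipt, the next enzyme, at -0.17. Elavl3 (chromosome 9, 22015005 to 22052023, minus strand) encodes an RNA-binding protein of neurons and stood at 7.14 and 5.69 CPM in WT and at 34.3, 26.4 and 22.7 in the mutant, the largest rise on the log2 scale (2.12, standard error 0.28, adjusted p = 0.00798). It was the 1 of 16 neural genes tested that passed. Tubb3, neuronal beta-tubulin, was low in WT replicate 1 alone, at 117 and 358 against 364, 390 and 401 CPM, and Sox1 was at 0.640 and 3.53 against 4.53, 3.55 and 3.96 CPM. Prrc1 was at 72.5 and 88.5 against 208, 213 and 224 CPM (2.67-fold, adjusted p = 0.00283).

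Other higher genes are known from work on chromosomes, membranes and cilia. Ankle1, an endonuclease, was at 5.29 and 5.42 against 14.2, 11.9 and 12.2 CPM and was the 1 of 28 repair genes that passed. Ccnb1ip1, a ubiquitin ligase known from meiotic crossover formation, was 2.38-fold higher (31.3 and 37.8 against 70.6, 85.0 and 90.8 CPM, adjusted p = 0.0168). Mau2, which loads cohesin on chromatin, was the smallest of the 16 at 72.2 and 83.25 against 133, 133 and 138 CPM. Spcs3, a signal peptidase subunit, was at 123 and 119 against 210.5, 245 and 253 CPM, and Gnpat, the first enzyme of ether lipid synthesis, at 149 and 163 against 264, 292 and 299 CPM. In each of these 5 genes the mutant libraries lay above both WT libraries by more than the WT libraries lay apart. Miip was 2.54-fold higher, Pir, an iron-binding nuclear protein, 2.14-fold, Caprin2, an RNA-binding protein, 2.001-fold and Lrsam1, a ubiquitin ligase, 1.94-fold. Dmtn, an actin-bundling protein, was at 121 and 137 against 247.5, 232 and 216.5 CPM.

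Evc and Evc2 encode partner proteins at the base of cilia that act in hedgehog signalling. They lie head to head on chromosome 5 with 1596 bases between their starts. Evc was at 26.0 and 28.1 CPM in WT and at 54.1, 50.0 and 48.5 in the mutant (1.88-fold, adjusted p = 0.0381 by edgeR). Evc2 was at 26.8 and 25.9 against 52.3, 52.7 and 57.75 CPM (2.06-fold, adjusted p = 0.0235), so the pair rose by a like amount. Neither passed with 1 library left out, whichever it was (adjusted p 0.0517 to 0.199). Because they moved together, the 150 bases before each start are shown in the same way, chr5:37336882-37337031 (minus strand) for Evc and chr5:37338328-37338477 (plus) for Evc2 on GRCm38.p6.
Evc: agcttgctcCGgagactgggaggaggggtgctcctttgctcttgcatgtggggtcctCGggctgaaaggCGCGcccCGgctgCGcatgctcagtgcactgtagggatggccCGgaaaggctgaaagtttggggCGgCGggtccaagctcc
Evc2: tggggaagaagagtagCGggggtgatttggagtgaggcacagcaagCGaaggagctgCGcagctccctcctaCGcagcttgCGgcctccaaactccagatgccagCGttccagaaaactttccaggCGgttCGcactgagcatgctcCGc
Each window holds 9 CG pairs. The GC box is in the Evc window, and neither window has CCAAT or TATAAA. The first bases after the Evc2 start were not found in a transcript of the gene, unlike those after the other starts shown. The Evc2 window and the distance between the starts are therefore less certain.

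Several genes were lower in the mutant with the WT libraries close together. Among them were Synj2, an inositol phosphatase of endocytosis, at 11.8 and 12.4 against 2.96, 2.19 and 2.95 CPM (4.48-fold lower, adjusted p = 0.00321 by edgeR), and Pik3r3, a regulatory subunit of PI 3-kinase, at 25.9 and 23.4 against 5.68, 4.56 and 7.67 CPM (4.13-fold, adjusted p = 0.00798). Vasp, which promotes actin filament growth, was likewise even within each genotype at 109 and 122 against 53.7, 55.2 and 53.6 CPM (2.13-fold, adjusted p = 0.00798). Hip1, a clathrin adaptor, was at 82.2 and 85.2 against 37.9, 32.9 and 36.0 CPM. Tnfrsf1a, a receptor for tumour necrosis factor, was at 5.25 and 7.61 against 0.693, 0.908 and 0.932 CPM (7.59-fold, adjusted p = 0.016), and Agpat9, an acyltransferase of glycerolipid synthesis, at 6.45 and 6.08 against 0.554, 1.53 and 0.583 CPM (7.03-fold). Aox3, an aldehyde oxidase, was higher in WT replicate 2 than in replicate 1, at 3.08 and 9.03 against 0.647, 0.289 and 0.369 CPM (13.9-fold, adjusted p = 0.00798). Tnnt3, a troponin of fast muscle, had 74 counts over the WT libraries and 0 over the mutant ones, which makes it at least 32.0-fold lower with 3 counts over the group as the floor.

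Most of the remaining lower genes were of low level. Vnn1, a pantetheinase, was at 4.38 and 1.47 against 0.185, 0.206 and 0.0777 CPM (18.6-fold lower), and Cdc42ep1, an effector of the GTPase CDC42, at 10.8 and 4.32 against 1.11, 1.16 and 0.893 CPM (7.18-fold). Aass, which breaks down lysine, was at 11.03 and 6.475 against 0.970, 1.98 and 1.79 CPM (5.53-fold), and Fmr1nb, a testis antigen next to Fmr1, at 9.19 and 15.5 against 2.08, 1.94 and 2.99 CPM (5.28-fold). Trim35, of the TRIM family, was among the more abundant at 89.97 and 79.9 against 24.3, 39.6 and 37.4 CPM (2.51-fold), and Bmf, a BH3-only inducer of cell death, was at 13.8 and 7.95 against 4.204, 3.34 and 4.35 CPM (2.75-fold). All 6 were lower in every mutant library than in either WT library. The others were Sh3rf2, Pdzrn4, Hoga1, Capn6, Prr5l, Ust, Sh2d4b, Fam134b, Rimklb, Snx24, Adamts7 and Tmbim1, with log2 differences from -4.53 for Sh3rf2 to -1.35 for Tmbim1.

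In 5 of the lower genes, among them markers of epithelium, endoderm and mesoderm, WT replicate 1 was far above replicate 2, and the difference shrank without it. Krt19, a keratin of simple epithelia, was at 140 and 15.9 CPM in WT and at 2.59, 3.80 and 2.95 in the mutant, and its log2 difference of -4.64 became -2.35 without WT replicate 1 (adjusted p 0.0237, then 0.199). Rnf128, a ubiquitin ligase, was at 41.25 and 4.40 against 2.03, 1.69 and 1.44 CPM (0.032, then 0.328), and Cryab, a small heat shock chaperone abundant in muscle, at 51.9 and 11.8 against 3.56, 3.22 and 1.92 CPM (0.0475, then 0.301). Lrp2, the endocytic receptor megalin, was at 66.1 and 18.6 against 4.44, 8.34 and 8.001 CPM (0.0475, then 0.323). For these 4 both WT libraries lay above the mutant ones. Kdr, the VEGF receptor of mesoderm and endothelium, was at 9.09 and 2.47 against 0.601, 0.351 and 0.893 CPM (0.0307, then 0.224). The log2 differences of Rnf128, Cryab, Lrp2 and Kdr without WT replicate 1 were -1.35, -2.03, -1.42 and -2.001, from -3.73, -3.46, -2.61 and -3.23. The 5 calls were also lost without any one of the mutant libraries, and kept without WT replicate 2. Runx1, a regulator of blood formation, was more even at 9.53 and 7.10 against 1.80, 1.20 and 2.14 CPM, with an adjusted p of 0.0499. Its log2 difference of -2.28 was -2.05 without WT replicate 1, and its call was lost without WT replicate 1 (0.192) and without mutant replicates 1, 2 and 3 (0.166, 0.226 and 0.0947). Kdr and Runx1 were the 2 of 12 endothelial and blood genes that passed, and Kdr was the 1 of 22 on the primitive streak and mesoderm list, whose median of -0.50 became 0.41 without WT replicate 1.

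Several lineage lists had negative medians with few or no members past the test. None of 24 fibroblast and stromal genes was positive and none passed, with a median log2 difference of -1.97, or -0.88 without WT replicate 1. Without overlap 17 of them lay lower, against 13.2% of all genes tested. Col1a1, a fibrillar collagen, was at 122.6 and 2.32 against 0.832, 1.28 and 1.65 CPM, and Col3a1 and Postn had 0 counts in the 4 libraries other than WT replicate 1. Thy1 ran the other way within WT, at 3.43 and 16.7 against 2.86, 3.14 and 2.80 CPM. Summed over the list the WT libraries were nearly equal, at 2881 and 2726 CPM, against 1809, 1562 and 1823 in the mutant. Smooth muscle and actin genes had a median of -1.16, which became 0.10 without WT replicate 1. Primitive endoderm genes had a median of -2.35, which became -0.41 without WT replicate 2 and -2.94 without replicate 1. Lrp2 was the 1 of 22 that passed. Within WT it ran against its list, at 66.1 CPM in replicate 1 and 18.6 in replicate 2, whereas the list was higher in replicate 2. Gata6, the endoderm regulator, was at 1.65 and 8.52 against 0.416, 0.660 and 0.544 CPM, and the basement membrane collagen Col4a1 at 154 and 269.5 against 27.4, 30.04 and 34.3 CPM. Trophoblast and simple epithelial genes had a median of -1.19 (-0.97 without WT replicate 1), Krt19 being the 1 of 17 that passed. The keratin Krt8 was at 568 and 75.2 CPM in WT and at 45.2, 36.0 and 24.55 in the mutant, and its partner Krt18 at 559 and 30.9 against 20.05, 17.2 and 10.4 CPM. Neither passed, and both were highest in WT replicate 1. The smooth muscle and primitive endoderm marker sums given above were highest in the same WT library as the lists of those names. Their part in each difference was not tested.

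**Figure D2:**
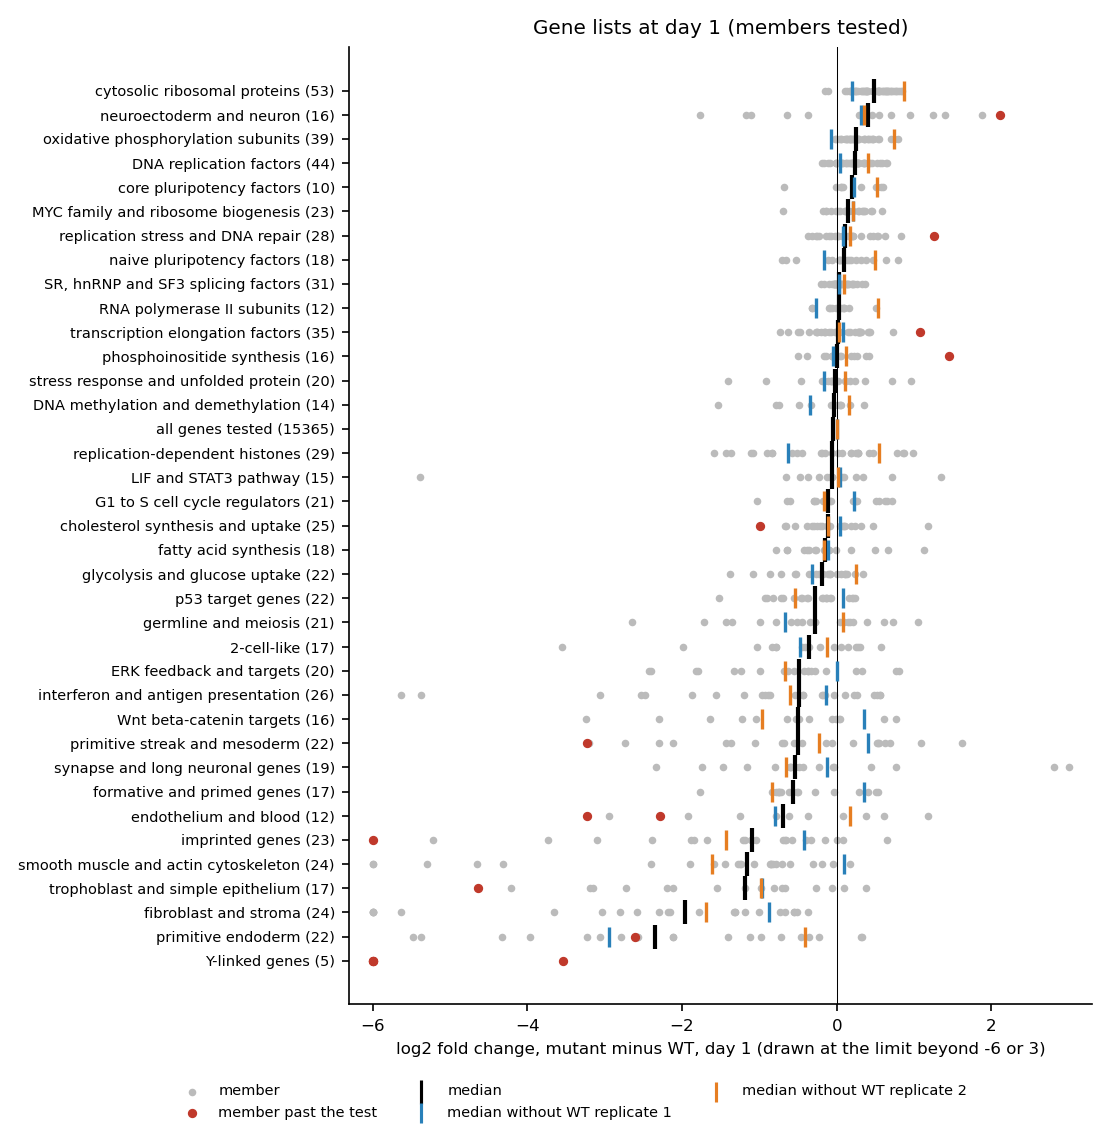
Log2 fold change at day 1 (mutant minus WT) of the members of each gene list, with members past the test in red, the median in black and the medians without either WT library in blue and orange; numbers of members tested are in parentheses, and members beyond the axis are drawn at its limit. The blue and orange marks lie far apart for smooth muscle, primitive endoderm, formative and Wnt target genes and close together for elongation and splicing factors.

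No pluripotency gene on the lists and no listed target of the inhibited pathways passed the test. Over 18 naive factors the median difference was 0.10 (-0.16 without WT replicate 1). Without overlap 3 lay higher and 0 lower, against 12.7% and 13.2% of all genes tested. Nanog was at 514 and 820 CPM in WT and at 538, 696.5 and 804 in the mutant, so that the mutant libraries lay between the WT ones. Klf2, a naive factor that MEK inhibition stabilises as a protein, was at 283 and 583 against 896.5, 677 and 682 CPM (log2 difference 0.80, standard error 0.27, adjusted p = 0.192 by edgeR). Klf4, its relative, was at 180 and 273 against 101, 138 and 191 CPM (adjusted p = 0.292). The log2 difference was 0.03 for Esrrb, -0.06 for Tfcp2l1 and 0.06 for Prdm14, and their groups overlapped. Dppa4, of the core list, was at 73.8 and 75.3 against 104.3, 129 and 104 CPM (adjusted p = 0.121), and none of its 10 members passed. The 17 formative and primed genes had a median of -0.57 and of 0.35 without WT replicate 1, and none passed.

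Genes that write and erase DNA methylation, which 2i is known to lower, did not pass at day 1 either. The 14 genes had a median of -0.04, which was -0.35 without WT replicate 1, 0.15 without WT replicate 2, 0.07 without mutant replicate 1 and 0.02 with span offsets. Dnmt3l, the cofactor of the de novo enzymes, was at 120 and 241 CPM in WT and at 84.7, 130 and 98.7 in the mutant, Dnmt3b at 160 and 107 against 47.8, 81.4 and 109 CPM, and Dnmt1, the maintenance enzyme, at 414 and 482 against 447, 474 and 593 CPM. All 3 overlapped. Tet3, which oxidises methylcytosine, did not overlap at 10.0 and 5.26 against 1.99, 1.84 and 4.08 CPM (adjusted p = 0.106). The Dnmt3l difference was -0.94, -0.79, -1.90 and -3.03 on days 0, 1, 2 and 7, and it passed at day 7 (adjusted p = 0.0397 by edgeR) but not at day 2 (0.351). Its difference at day 1 did not pass when tested against that at day 7 (adjusted p = 0.764 by edgeR).

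ERK target genes varied widely within each genotype. Egr1, an immediate early gene, was at 181.5 and 4.51 CPM in WT and at 8.55, 162 and 3.92 in the mutant, high in 1 library of each genotype. Fos followed the same libraries at 110 and 2.67 against 2.91, 27.5 and 1.48 CPM. The feedback inhibitor Spry4 was at 2.29 and 3.49 against 0.277, 10.4 and 3.96 CPM, and the ERK phosphatase Dusp6 at 19.04 and 10.2 against 3.05, 16.2 and 9.01 CPM, lowest in mutant replicate 1 and highest, within the mutant, in replicate 2. None of the 20 passed, with a median of -0.49 (-0.002 without WT replicate 1). Of 16 beta-catenin targets none passed either: Axin2, the feedback target, was at 110.7 and 70.4 against 36.2, 29.6 and 66.6 CPM (adjusted p = 0.29), Sp5 at 142 and 73.0 against 108, 64.5 and 161 CPM, and T, the mesoderm regulator, at 91.5 and 6.73 against 10.6, 6.64 and 12.8 CPM. Their median of -0.50 became 0.35 without WT replicate 1.

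Of the growth and metabolism lists that follow, only that of cholesterol synthesis had a member past the test. Cytosolic ribosomal proteins were positive in 51 of 53 genes, with a median of 0.48 (0.20 without WT replicate 1, 0.32 with span offsets) and none past the test. That median was the largest positive one of the lists. Without overlap 17 of the genes lay higher and 0 lower, against 12.7% and 13.2% of all genes tested. By library the median deviation of these 53 genes from their day 1 mean was -0.54 and 0.05 in WT and 0.58, 0.25 and -0.09 in the mutant, so the groups overlapped. Rpl5 came closest at 75.5 and 83.0 against 148, 138 and 113 CPM (adjusted p = 0.0766 by edgeR). Oxidative phosphorylation genes were positive in 37 of 39 with a median of 0.25, which became -0.07 without WT replicate 1. DNA replication factors were positive in 37 of 44 with a median of 0.23 (0.04 without WT replicate 1). Without overlap 13 lay higher and 0 lower, against the same 12.7% and 13.2%. Rfc4, a clamp loader subunit, was at 54.7 and 54.0 against 90.4, 93.1 and 73.4 CPM (adjusted p = 0.0945), and Orc5, of the origin recognition complex, at 137 and 129 against 235, 203 and 184 CPM (adjusted p = 0.121).

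The 22 genes of glycolysis and glucose uptake had a median of -0.19 (0.26 without WT replicate 2) and none past the test. Slc2a3, a neuronal-type glucose transporter abundant in these cells, was at 2133 and 2032 CPM in WT and at 1235, 1049 and 1143 in the mutant. The groups lay well apart, yet the adjusted p was 0.0628 (log2 difference -0.87, standard error 0.18, edgeR). Hk2, the hexokinase that traps glucose in the cell, was at 222 and 338.5 against 96.7, 131.5 and 170 CPM (adjusted p = 0.103), while Ldha and Pkm overlapped. Among 25 cholesterol genes 1 passed: Sqle, squalene epoxidase, was lower at 153 and 154.5 against 59.0, 84.8 and 87.95 CPM (1.99-fold, adjusted p = 0.0411), and its adjusted p was 0.058 to 0.15 with 1 library left out. Fdft1 and Lss, which act just before and after it in the pathway, did not pass, at log2 differences of -0.29 and 0.08, nor did the regulators Srebf2 (-0.11) and Insig1 (-0.10).

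No gene passed in the remaining lists. The median was 0.14 for MYC and ribosome biogenesis genes and -0.15 for fatty acid synthesis. Other medians changed sign when 1 library was left out: -0.02 for stress genes (0.11 without WT replicate 2), -0.06 for LIF pathway genes (0.04 without WT replicate 1), -0.06 for histones (0.55 without WT replicate 2), -0.29 for germline genes (0.08 without WT replicate 2) and -0.36 for 2-cell-like genes (0.06 without mutant replicate 1). The 22 p53 targets had a median of -0.28 (0.08 without WT replicate 1), with Cdkn1a, the cell cycle inhibitor, at 255 and 229 against 292, 170 and 181 CPM and Mdm2, the p53 ubiquitin ligase, at 226.5 and 122.5 against 125, 159 and 121 CPM. The 21 regulators of entry into S phase had a median of -0.11 (0.23 without WT replicate 1), and Cdk4, the kinase of D cyclins, lay apart at 656 and 796 against 1212, 1077 and 880 CPM (adjusted p = 0.152). The 26 interferon and antigen presentation genes had a median of -0.49 (-0.13 without WT replicate 1). Without overlap 7 lay lower and 1 higher, against 13.2% and 12.7% of all genes tested. Oas1a, a sensor of double-stranded RNA, was at 7.66 and 48.35 against 5.22, 4.99 and 4.35 CPM (adjusted p = 0.0905), high in WT replicate 2, and Tapbp, which loads antigen peptides, at 96.4 and 43.8 against 25.4, 21.5 and 24.6 CPM. The 19 synaptic and long neuronal genes had a median of -0.54, which became -0.13 without WT replicate 1 and -0.03 with span offsets.

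Gene span bears on a study of elongation speed, and the differences followed it. The median log2 difference was 0.09 for genes spanning under 10 kb, 0.01 from 10 to 30 kb, -0.11 from 30 to 100 kb and -0.32 from 100 kb, where 26.6% of 2199 genes were positive against 45.6% of all genes tested. Without WT replicate 1 these medians were 0.005, 0.02, 0.04 and -0.10, and without WT replicate 2 they were 0.34, 0.09, -0.16 and -0.40. Of all 15365 genes tested 48 (0.312%) passed as lower and 16 (0.104%) as higher. Of the 2199 genes of at least 100 kb 15 passed as lower and 1 as higher. Relative to each gene's day 1 mean, their median level was 0.17 and -0.01 in the WT libraries and -0.20, -0.10 and 0.01 in the mutant ones. Mutant replicate 3 thus lay above WT replicate 2. For genes under 10 kb WT replicate 1 was lowest, at -0.15, and mutant replicate 1 highest, at 0.18. Atxn1, a long gene of transcriptional regulation, was at 6.63 and 3.296 against 0.323, 0.165 and 0.699 CPM (adjusted p = 0.0261 by edgeR), and Palld, an actin-associated scaffold, at 101 and 62.7 against 19.5, 22.7 and 37.25 CPM (0.0239), and both were among those lower. At days 0, 2 and 7 the median of the longest class was -0.30, -0.10 and -0.02.

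Positions on chromosomes were also uneven. Of all genes tested 45.6% were positive and 12.7% lay higher without overlap. On chromosome 8 the 820 genes tested had a median log2 difference of 0.37, 75.4% were positive, and 38.4% lay higher without overlap. Relative to each library's median over all genes, the median level there was -0.25 and -0.05 in WT and 0.20, 0.17 and 0.15 in the mutant, so the 3 mutant libraries were close to each other and above both WT libraries. Ankle1, Mau2, Gnpat and Spcs3, all among the 16 higher genes, lie on it, as does Palld, which was lower. On chromosome 15 the 627 genes had a median of -0.29, and 7 (1.12%, against 0.417% of all genes tested) passed, each lower. There WT replicate 2 stood alone at 0.29, while WT replicate 1 was at -0.10 and the mutant at -0.07, -0.09 and -0.10, and the median became 0.04 without WT replicate 2. Sqle, Fbxo32, an F-box protein of muscle, Trib1, a pseudokinase, and Oc90 lie within 57 to 67 Mb of that chromosome, a stretch chosen after its values were seen. Trib1 was at 18.2 and 11.85 against 4.04, 5.28 and 4.99 CPM. Trib1 and Fbxo32 (2.69 and 1.14 CPM in WT) were higher in WT replicate 1, as were Cdc42ep1 and Fam134b elsewhere on the chromosome. Oc90 (0.977 and 2.55 CPM in WT) and Pdzrn4 were higher in WT replicate 2, and Sqle was nearly equal in both. The chromosome 8 medians on days 0, 2 and 7 were 0.40, 0.37 and 0.27, and those of chromosome 15 were -0.28, -0.25 and -0.24.

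**Figure D3:**
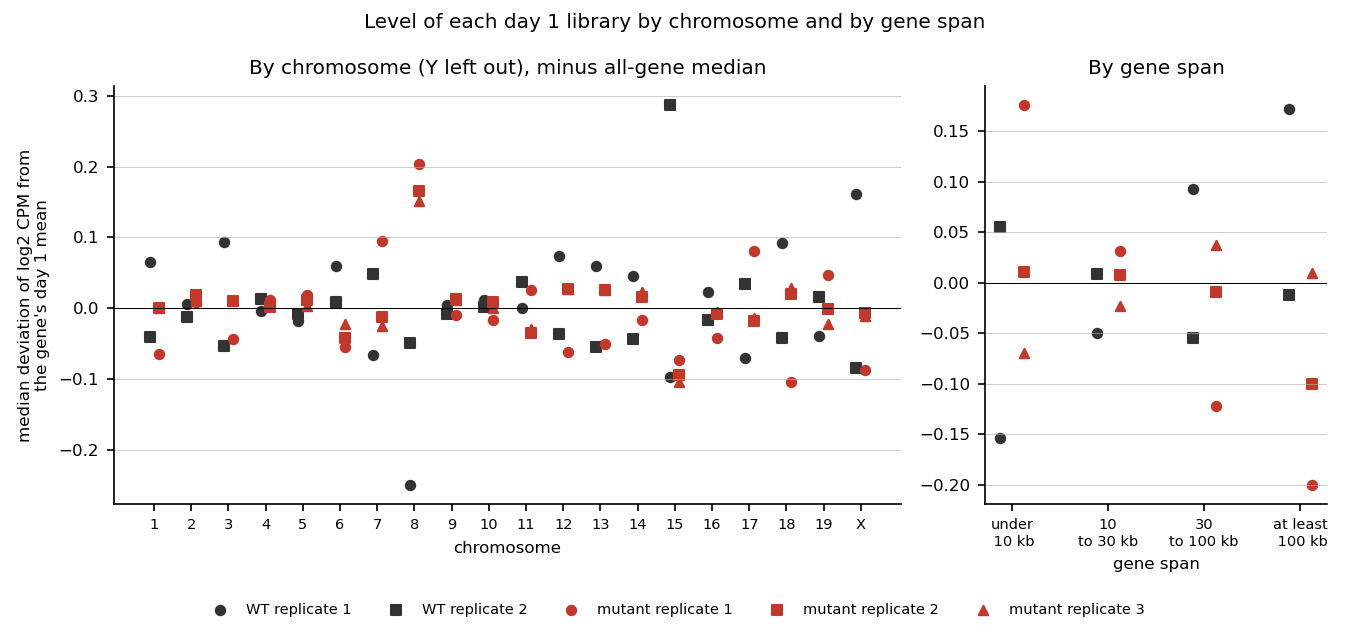
Median deviation of log2 CPM from each gene's day 1 mean in each day 1 library, by chromosome (left, minus the library's median over all genes, Y left out) and by gene span (right), with WT in dark grey and the mutant in red. The mutant lies above both WT libraries on chromosome 8, WT replicate 2 stands alone on chromosome 15, and WT replicate 1 and mutant replicate 1 take opposite ends in the shortest and longest genes.

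Chromosome 6 held 10 of the 64 genes, 9 of them lower. That was 1.36% of its 736 genes tested, against 0.417% of all genes tested. Without overlap 20.5% of its genes lay lower and 10.1% higher, against 13.2% and 12.7% of all genes tested. Between 72 and 86 Mb, a stretch chosen after its values were seen, 59 of 76 genes tested were negative with a median of -0.50, 29 lay lower without overlap and 5 passed. Those were Kcmf1, a ubiquitin ligase, Slc4a5, a bicarbonate transporter, Tex261, Dysf, which repairs muscle membranes, and Rab11fip5, of recycling endosomes. Rab11fip5 was at 75.1 and 79.1 against 29.0, 15.4 and 26.9 CPM (3.24-fold lower, adjusted p = 0.0171 by edgeR). Kcmf1 was at 123 and 140 against 67.1, 73.25 and 67.3 CPM (1.90-fold, adjusted p = 0.0136), and Dysf at 16.4 and 14.3 against 5.82, 4.003 and 4.95 CPM (3.12-fold). In all 3 the WT libraries were close together and lay above the mutant. The stretch had medians of -0.32, -0.63 and -0.59 on days 0, 2 and 7.

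The other days were measured in libraries of their own, so they share none with day 1. Within WT, however, a replicate number carried over from day to day: Acta2 was at 151 and 0.102 CPM in WT replicates 1 and 2 at day 0, 327 and 0.118 at day 1 and 41.5 and 0 at day 2, and Gata6 was higher in replicate 2 on all 4 days. The difference between genotypes had the same sign on all 4 days in 59 of the 64 genes (14 higher, 45 lower). The groups did not overlap in that direction on any day in 52. The same shares over all genes tested were not computed, so these counts have no background to be set against. At days 0, 2 and 7, 43 genes (0.28%), 11 (0.0716%) and 15 (0.0976%) passed, and of the 64 these tests also called 26, 11 and 10. Testing the difference itself, 0 genes (0%) had a genotype effect at day 1 that differed from that at day 0 by edgeR, with 118 (0.768%) at an unadjusted p under 0.05, and DESeq2 also gave 0. Against day 2 both tools gave 0 (116, or 0.755%, unadjusted), and against day 7 edgeR gave 0 (877, or 5.71%, unadjusted) and DESeq2 22. The edgeR fit with a term for the WT replicate number gave 0 against days 0 and 2 and 8 against day 7. Of tests with no difference 5% have an unadjusted p under 0.05.

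In the test of day 1 against day 7 no gene passed by edgeR without that term. In it Synj2, Mest, Ddx3y and Tcea3 had unadjusted p of 4.26e-05, 5.82e-05, 9.47e-05 and 0.00013. The Mest difference was -8.44 at day 1 and -4.40 at day 7, and that of Ddx3y -10.63 and -3.74. Tcea3 went, in CPM, from 94.7 and 96.9 in WT and 213 and 152 in the mutant at day 0 to 51.1 and 41.1 against 32.7 and 37.5 at day 7, where the mutant lay below WT. Its log2 difference was 0.93, 1.08, 0.40 and -0.39 on days 0, 1, 2 and 7 (adjusted p for day 1 against day 7 = 0.467). Synj2 had an adjusted p of 0.447 in that test, and its groups overlapped at day 7, at 11.4 and 7.98 in WT against 11.6 and 10.25 CPM. Miip, at 1.501, 1.35, 0.71 and -0.35, ran like Tcea3, and Kdr went from -3.23 at day 1 to 1.11 at day 7. Elavl3 (1.46, 2.12, 2.03 and 1.77) and Cds2 (1.44, 1.45, 1.25 and 1.06) kept the sign of day 1 throughout. Evc2 had its largest value at day 7 (1.89, against 1.04 at day 1).

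**Figure D4:**
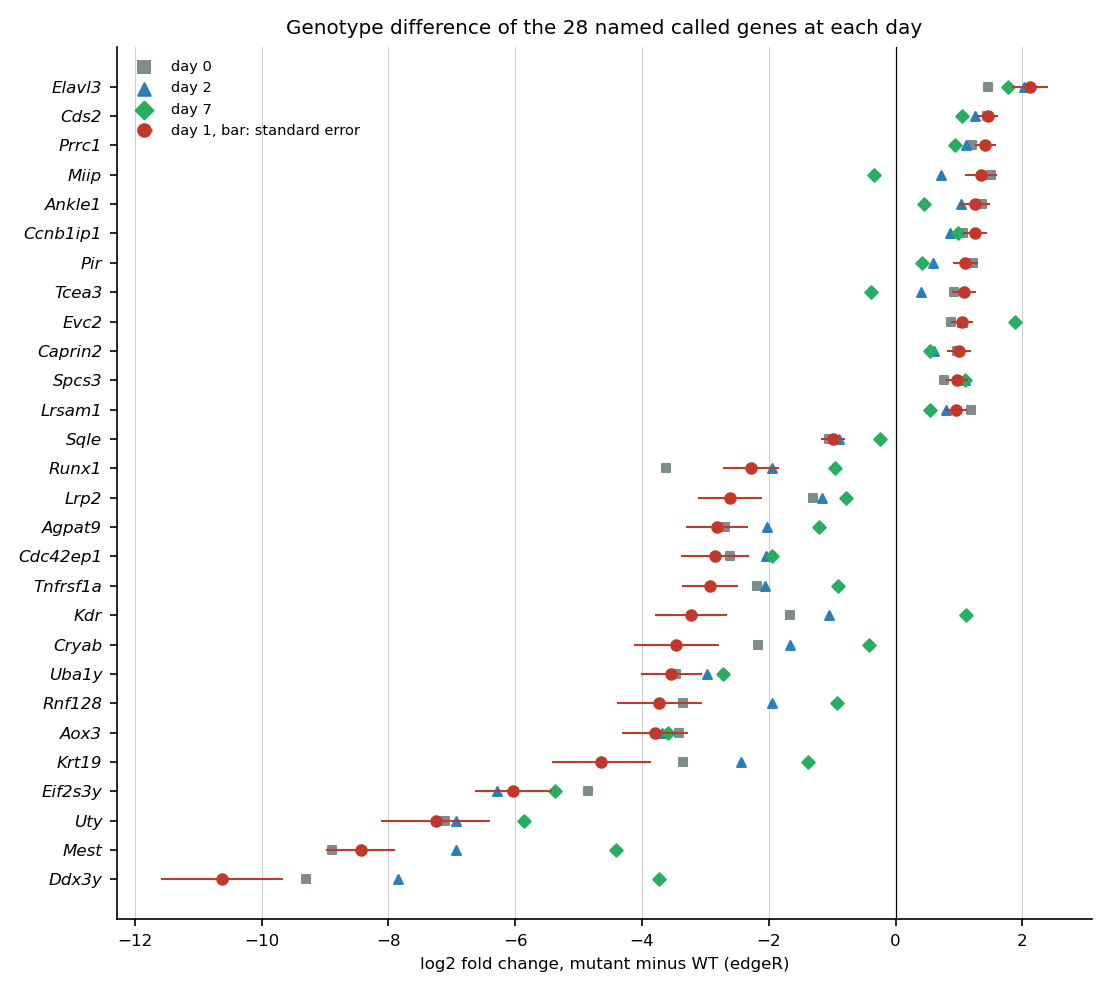
Log2 fold change (mutant minus WT, edgeR) of the 28 called genes that the naming rule gave, at day 1 (red, with standard error) and at days 0, 2 and 7. For most genes the 4 marks lie on 1 side of 0, and Miip, Tcea3 and Kdr are on the other side at day 7.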

How the data were processed

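Total RNA was sequenced in 17 libraries, and the deposited values are whole-number counts per gene for all of them in 1 table, in which 0 sample columns were left unused. Per the submitters' processing notes STAR and deepTools were used with the mm10 build. Versions, the counting tool, its annotation and the use of strand are not given in the sources used here. From the counts, edgeR 4.0.16 (R 4.3.3) was run with TMM scaling, filterByExpr (15365 of 20621 genes kept), 1 quasi-likelihood fit over all 17 libraries with 8 group coefficients, and Benjamini-Hochberg adjustment over all genes tested, with tests two-sided. The common coefficient of biological variation came to 0.333. CPM use the TMM-scaled library sizes. Positions and spans are from GENCODE M21 on GRCm38, which is mm10, with RefSeq synonyms for older symbols (20585 symbols placed). The 37 gene lists and the genes were chosen with earlier results of these data known. Named were the 12 largest rises and falls among called genes that did not overlap and whose higher genotype averaged 5 CPM or more, up to 4 called members of each list (or up to 2 with the lowest p) and a set of pluripotency, signalling and lineage genes. The mitochondrially encoded genes were not analysed here. On simulated counts for these 15365 genes the day 1 test recovered 19 of 100 genes changed 2-fold and 88 of 100 changed 4-fold, with 5 calls among unchanged genes, and the test of day 1 against day 0 recovered 0 and 44. The changed genes averaged at least 5 CPM, and the simulation held no difference between WT replicates that carried over days. The rates therefore do not cover genes of lower level or such differences. Alternatives were DESeq2 1.42.0, other scalings and filters, a replicate block, span offsets, leaving out chromosomes and leaving out each library.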

Additional observations from a re-analysis of the deposited data

How the results depend on the processing

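The 64 calls at day 1 (16 higher, 48 lower) became 766 with DESeq2 (264 higher, 502 lower) and 695 with a term for the WT replicate number (264 and 431); both sets held all 64. The fit of the 5 day 1 libraries alone called 5 (0 and 5), leaving out chromosomes 8, 15 and Y 40 (12 and 28), leaving out WT replicate 1 of days 0 and 1 together 41 (4 and 37), and span offsets 84 (30 and 54). Leaving out 1 library each gave 10 to 241 calls, 3 to 37 higher and 7 to 204 lower. A replicate block gave 55 (16 and 39), of which 33 were among the 64. Deviations of same-numbered libraries from their group means had correlations of -0.163 and -0.222. With 2 WT libraries the WT deviations are mirror images, so these values cannot decide whether the numbers pair the genotypes at day 1. Within WT the number carried over days (the term for it, above). Of the named genes, 0 of 28 called and 29 of 90 not called changed sign in any alternative, and 21 of 36 list medians did, 11 of them without WT replicate 1. Depth limits the genes of low level: Tnnt3 rests on 74 counts over both WT libraries, and a gene with no count in the mutant has only a bound on its fold.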
